A study of Mus musculus with 6 samples.

Results

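Stefins and cystatins are small proteins that block the papain-like cysteine cathepsins, proteases that digest proteins mainly in lysosomes and endosomes. The 5 genes described here are Stfa3, Stfa2l1, Cstb, Cst3 and Cst7, of 18193 genes measured. They were chosen by gene symbol as cathepsin inhibitors, and selected on measured values of Stfa3 and Stfa2l1, which rose against the trend of neutrophil genes. The comparison behind that choice was not named. Marrow cells carrying MN1 against sorted myeloid cells was taken as the one used, though MN1VP16 arrays may also have entered the choice. Values of MN1 against sorted myeloid cells are therefore given as a description, without a test, for all 5, and Stfa3 and Stfa2l1 carry no test in any comparison.

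The MN1VP16 and MN1 arrays measured GFP+ bone marrow cells that carried the retroviral vector pSF91-MN1VP16-IRES-GFP or pSF91-MN1-IRES-GFP, and the Gr1Mac arrays measured bone marrow cells positive for Gr1 and CD11b, with 2 arrays in each group. MN1 is a transcriptional coactivator that causes myeloid leukaemia in mice, and VP16 is a viral activation domain. The donor marrow was C57BL/6J, taken from mice given 150 mg/kg 5-fluorouracil for 4 days. It was kept for 48 hours with IL6, IL3 and SCF, then infected by culture with irradiated producer cells. Syngeneic recipients had been lethally irradiated, and their marrow was sorted 4 weeks after the transplant. The Gr1Mac samples bear the same protocol text, which leaves unclear whether they came from transplanted mice. Ages, sexes and numbers of mice were not given, and cells with an empty vector were not analysed here. No detection calls were used, so 5.84 log2 units, the highest reading of Xist on arrays with high Y-linked genes, served as a guide to background. The Mn1 probe set read 4.92 and 4.00 log2 units on MN1VP16 arrays, 3.92 and 4.51 on MN1 arrays, and 3.63 and 4.21 on Gr1Mac arrays, all under that guide, so it checks no label.

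Mammalian cystatins fall into families. Stefins, the type 1 family, lack a signal peptide and stay mostly in the cytoplasm, and mice carry a cluster of stefin A genes on chromosome 16 where humans have a single gene. Stefin A proteins are known from mouse neutrophils and skin. Type 2 cystatins are made with a signal peptide: cystatin C, encoded by Cst3, is secreted by most cell types and is abundant in dendritic cells and macrophages, whereas cystatin F, encoded by Cst7, is made by immune cells and acts within their endosomes and lysosomes.

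Stfa3 and Stfa2l1 belong to the chromosome 16 cluster, which holds 11 stefin genes. Stfa2l1 is the second and Stfa3 the last of them in genome order, and Csta1, Stfa2l1 and Stfa3 were the 3 with a probe set of their own. The promoter windows of both members, 250 bases before to 50 after the gene start from RefSeq on build GRCm38.p6, are shown because these genes had the same pattern over the arrays. Capitals mark the longest run of bases that both windows hold. The Stfa3 window is chr16:36455343-36455642 on the minus strand and the Stfa2l1 window chr16:36156561-36156860 on the plus strand.
Stfa3: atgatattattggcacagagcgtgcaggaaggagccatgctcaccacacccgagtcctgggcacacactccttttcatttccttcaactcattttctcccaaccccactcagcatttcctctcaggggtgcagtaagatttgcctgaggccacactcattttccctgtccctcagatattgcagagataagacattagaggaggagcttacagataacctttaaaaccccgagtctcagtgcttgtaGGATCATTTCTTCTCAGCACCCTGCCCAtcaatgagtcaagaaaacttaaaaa
Stfa2l1: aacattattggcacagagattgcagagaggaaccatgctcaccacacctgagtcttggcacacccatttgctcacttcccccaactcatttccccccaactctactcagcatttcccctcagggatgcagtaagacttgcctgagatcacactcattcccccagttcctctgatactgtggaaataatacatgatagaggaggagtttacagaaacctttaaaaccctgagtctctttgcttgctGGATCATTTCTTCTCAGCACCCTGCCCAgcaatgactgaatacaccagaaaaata

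The windows of Stfa3 and Stfa2l1 were 81.0% identical in a pairwise alignment. The shared run, sought after the sequences had been seen, is 28 bases long and starts 3 bases before the Stfa3 start and 5 bases before the Stfa2l1 start. It was found in 3 of the 11 promoter windows listed for the cluster, the third being that of Stfa2, and in 3 of 32851 mouse promoter windows, or 0.00913%. The Stfa2 window was 90.5% identical to that of Stfa2l1 and 80.9% to that of Stfa3. The windows of the type 2 members Cst3 and Cst7 were 41.4% and 45.2% identical to that of Stfa3. These identities are of promoter windows, and transcript and probe sequences were not compared. Whether a probe set annotated to Stfa3 or Stfa2l1 alone also reads neighbouring stefins was not tested.

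Short motifs of myeloid regulators were searched on both strands of the 4 member windows listed, which leave out Cstb. The PU.1 core GAGGAA occurs in 28.3% of all promoter windows, the C/EBP motif TTGCNNA in 37.1% and the Hox motif TGATTNA in 10.3%. The Stfa3 window held GAGGAA 1 time and TTGCNNA 1 time, and the Stfa2l1 window held each of them 2 times. Cst3 had 1 match to GAGGAA. Cst7 had 1 match to TTGCNNA and 1 to TGATTNA, which overlapped. These are letter matches in windows of 300 bases and are not binding sites.

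Stfa3 read 13.38 and 13.41 log2 units on MN1VP16 arrays, 13.40 and 12.53 on MN1 arrays, and 8.63 and 8.33 on Gr1Mac arrays. Every array of either construct lay far above both Gr1Mac arrays, and the MN1VP16 and MN1 arrays overlapped. The group means were 13.39 ± 0.02 for MN1VP16, 12.96 ± 0.61 for MN1 and 8.48 ± 0.22 for Gr1Mac (log2 units, SD, n = 2 each). The difference was 4.91 ± 0.30 (SE) for MN1VP16 minus Gr1Mac, or 30.1-fold, and 4.48 ± 0.30 for MN1 minus Gr1Mac, or 22.4-fold. In order of difference, Stfa3 was number 10 from the top of 18193 genes in MN1VP16 minus Gr1Mac and number 91 in MN1 minus Gr1Mac. Of all genes, limma called 5.77% in either direction in MN1VP16 minus Gr1Mac (adjusted p under 0.05) and 29.3% in MN1 minus Gr1Mac, 2 comparisons that share the Gr1Mac arrays.

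Stfa2l1 had the same order of groups with a smaller gap. It read 14.04 and 13.66 log2 units on MN1VP16 arrays, 13.73 and 12.95 on MN1 arrays, and 10.88 and 11.17 on Gr1Mac arrays. Both constructs again lay above Gr1Mac without overlap, and they overlapped with each other. The difference was 2.83 ± 0.30 (SE) for MN1VP16 minus Gr1Mac, or 7.09-fold, and 2.32 ± 0.30 for MN1 minus Gr1Mac, or 5.00-fold. Over the 6 arrays the log2 values of Stfa3 and Stfa2l1 had a Pearson correlation of 0.984, which rests mostly on the gap between the Gr1Mac arrays and the other 4.

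The constructs differed little in either stefin A gene. Stfa3 was 0.43 log2 units higher and Stfa2l1 0.50 higher in MN1VP16 than in MN1, and in each gene MN1 array 1 lay between the MN1VP16 arrays. Of all genes, 3.85% were called in either direction in this comparison. Both differences rest on MN1 array 2: without it the value was -0.0057 for Stfa3 and 0.12 for Stfa2l1.

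Cstb encodes stefin B, the cytoplasmic stefin found in most cells. It read 12.01 and 11.68 log2 units on MN1VP16 arrays, 11.08 and 11.43 on MN1 arrays, and 11.63 and 11.79 on Gr1Mac arrays. The MN1 arrays were the lowest, and the MN1VP16 and Gr1Mac arrays overlapped. MN1VP16 minus Gr1Mac was 0.13 (95% interval -0.37 to 0.63; limma adjusted p = 0.785), and MN1VP16 minus MN1 was 0.59 (0.09 to 1.09; limma adjusted p = 0.163), so neither difference passed the test. MN1 minus Gr1Mac was -0.45 ± 0.20 (SE). A second, dimmer Cstb probe set read 8.73 and 8.20 on MN1VP16 arrays, 8.16 and 8.22 on MN1 arrays, and 9.24 and 8.31 on Gr1Mac arrays, with a MN1VP16 minus Gr1Mac difference of -0.32, opposite in sign to the first.

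**Figure D1:**
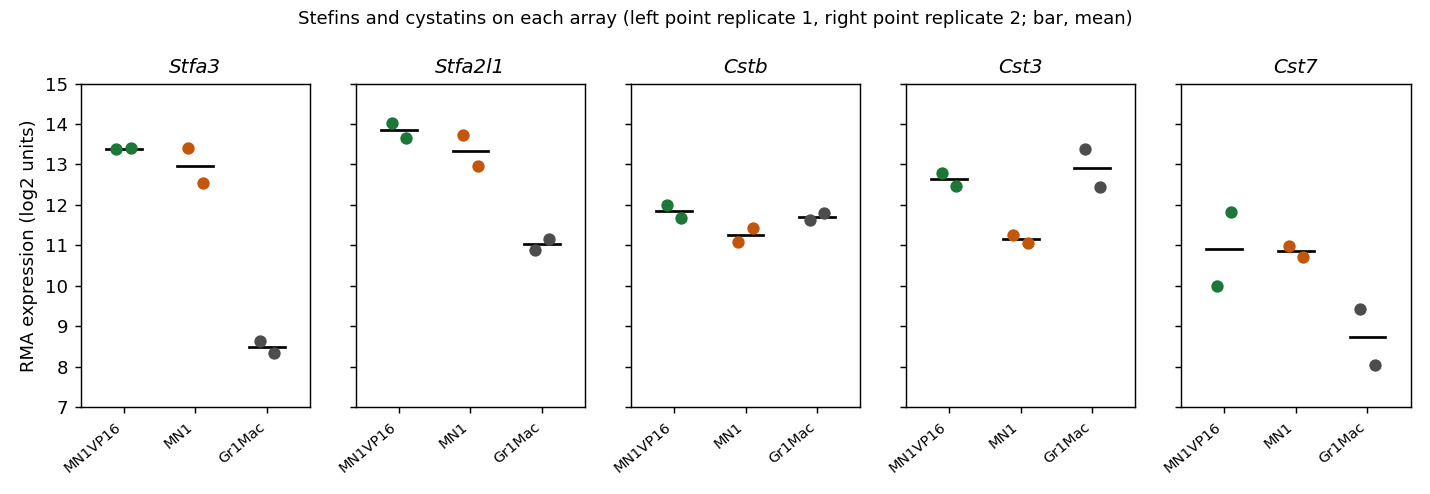
Log2 expression of the 5 stefin and cystatin genes on each array (vertical axis, log2 RMA units), with MN1VP16, MN1 and Gr1Mac from left to right. Points are arrays and bars are group means. Stfa3 and Stfa2l1 lie higher on all 4 construct arrays than on the Gr1Mac arrays, Cst3 is lowest on the MN1 arrays, and the Cst7 points of MN1VP16 lie far apart at 10.00 and 11.83.

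Cst3, the gene of cystatin C, had the opposite pattern to the stefin A genes in MN1 cells. It read 12.80 and 12.46 log2 units on MN1VP16 arrays, 11.25 and 11.05 on MN1 arrays, and 13.38 and 12.44 on Gr1Mac arrays. MN1 arrays lay below all others, and MN1VP16 overlapped Gr1Mac. MN1 minus Gr1Mac was -1.76 ± 0.33 (SE), number 797 from the bottom of 18193 genes.

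Between the constructs, Cst3 was 1.48 log2 units higher in MN1VP16 than in MN1 (95% interval 0.68 to 2.28, or 2.79-fold with 1.60 to 4.86), a difference that just missed the threshold (limma adjusted p = 0.0665). With the 2 construct groups fitted alone the adjusted p was 0.0469, and with 1 array left out in turn it ran from 0.0469 to 0.348. With sex pattern (high Xist or high Y-linked genes) as a block the difference was 2.42 (adjusted p 0.215). Against Gr1Mac, MN1VP16 differed by -0.28 (-1.08 to 0.52; limma adjusted p = 0.701). Over the 6 arrays Cst3 and Cstb had a correlation of 0.716, and Cst3 and Stfa3 one of -0.498.

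Cst7, the gene of cystatin F, read 10.00 and 11.83 log2 units on MN1VP16 arrays, 10.99 and 10.72 on MN1 arrays, and 9.42 and 8.05 on Gr1Mac arrays. All 4 construct arrays lay above both Gr1Mac arrays, and the MN1VP16 arrays were spread on both sides of the MN1 arrays. The share of all genes with arrays set apart in this way was not counted, for Cst7 or for the other members. MN1VP16 minus Gr1Mac was 2.18 (95% interval 0.52 to 3.84, or 4.54-fold with 1.44 to 14.3) and did not pass the test (limma adjusted p = 0.121, from 0.0588 to 0.341 over the alternatives). MN1 minus Gr1Mac was 2.12 ± 0.68 (SE), or 4.35-fold. Without Gr1Mac array 1 or 2 the MN1 minus Gr1Mac difference was 2.80 or 1.44, and the MN1VP16 minus Gr1Mac difference 2.86 or 1.5. Without MN1VP16 array 1 or 2 MN1VP16 minus Gr1Mac was 3.10 or 1.26. MN1VP16 minus MN1 was 0.06 (-1.60 to 1.72; limma adjusted p = 0.974), an interval wide enough to hold a difference of more than 1 log2 unit either way.

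The 5 measured T and NK cell markers did not move together within the MN1VP16 pair, where Cst7 was higher on array 2. Nkg7, a granule gene of natural killer and cytotoxic T cells, was higher on array 2. So was Cd3e (6.55 on array 1 and 6.78 on array 2), which like Cd3d encodes a CD3 chain of the T cell receptor complex. Cd3d read 5.37 and 5.59. Gzma, the granzyme A gene (6.43 on array 1 and 5.32 on array 2), and Il7r, the interleukin 7 receptor (8.12 and 7.81), were lower on array 2. Both Cd3d readings and the Gzma reading on array 2 lay under the guide to background, so the Cd3d direction cannot be read. Cd3d was above the guide on Gr1Mac arrays only (8.66 and 7.94). Nkg7 read 9.36 and 12.05 log2 units on MN1VP16 arrays, 9.82 and 8.82 on MN1 arrays, and 9.76 and 9.51 on Gr1Mac arrays. The mean over the 5 markers was 7.17 to 7.51 on MN1VP16 arrays, 7.03 to 7.12 on MN1 arrays, and 6.98 to 7.27 on Gr1Mac arrays, and 0 of the 5 were at or under the guide to background on every array. Their part in the Cst7 values was not tested. In bulk samples of this kind, fewer cells of a type and less RNA per cell cannot be told apart.

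The neutrophil genes against which the stefins stood out form a list of 26, of which 22 were measured. Their trend was part of the choice of members, and the Gr1Mac cells were sorted for Gr1 and CD11b. The counts of neutrophil genes against Gr1Mac, for MN1 and for MN1VP16, are therefore a description and no separate support for the choice. In MN1 minus Gr1Mac, 17 of the 22 fell and 0 rose (21 and 0 at an unadjusted p under 0.05), with a median difference of -2.23, where 12% of all genes fell and 17.3% rose with a median of -0.06. Asprv1, a protease of skin and neutrophils, fell by 5.17 and Ifitm1, an interferon-induced membrane protein, fell by 5.05 log2 units. The chemokine gene Ccl6 fell by 4.11. The count of 17 was 10 without Gr1Mac array 1 and 8 without Gr1Mac array 2. Over the same arrays Stfa3 and Stfa2l1 differed by 4.48 and 2.32 in the other direction, the contrast taken as the one they were chosen for.

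In MN1VP16 minus Gr1Mac, 3 of the 22 neutrophil genes fell and 0 rose (11 and 0 at an unadjusted p under 0.05), with a median of -1.24, where 2.11% of all genes fell and 3.66% rose. The 3 were Ifitm1 (-2.69), Asprv1 (-2.53) and Padi4 (-1.84), the last encoding the enzyme that citrullinates histones in neutrophils. The count was 0 without Gr1Mac array 2, and 1 without Gr1Mac array 1 or MN1VP16 array 1. It was 5 without either MN1 array, where Asprv1 alone of the 3 was lost (0.0636). In MN1VP16 minus MN1, 2 of the 22 rose, Asprv1 by 2.64 and Ifitm1 by 2.36, and 0 fell, where 1.15% of all genes rose and 2.7% fell, and the median was 0.91. Each of these 2 calls was lost without MN1 array 1 or 2, Gr1Mac array 1 or 2, or MN1VP16 array 2.

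**Figure D2:**
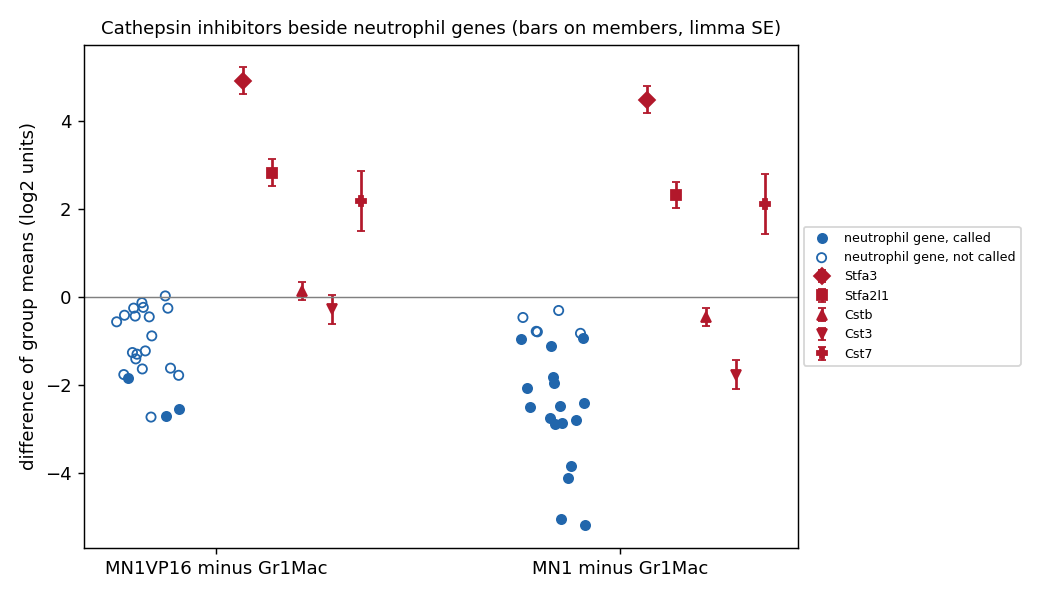
Difference from Gr1Mac (log2 units) of the 22 neutrophil genes and the 5 stefin and cystatin genes, with MN1VP16 minus Gr1Mac and MN1 minus Gr1Mac side by side. Circles are neutrophil genes, filled where limma called them, and red symbols are the members with bars of 1 SE. The neutrophil trend was part of the choice of members, so these calls are a description. Stfa3 and Stfa2l1 lie above 0 in both while the medians of the neutrophil genes are -1.24 and -2.23.

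Other members of the family with a probe set of their own were near the bottom of the scale. Most stefin genes of the cluster have no such probe set, so their levels are not given here. Probe sets that the annotation gives to 2 stefin genes are left out of this paragraph, and 1 of them read 13.74 to 14.49 log2 units on construct arrays. Of the stefin list, 3 genes beside the members were measured, Csta1, Cstdc1 and Cstdc2, and all read at or under 5.62 log2 units on every array. Limma called 0 of them in any comparison, with 1 at an unadjusted p under 0.05, in MN1VP16 minus Gr1Mac. The 6 other measured type 2 cystatins (Cst6, Cst9, Cst10, Cst11, Cst12 and Cst13) read at or under 4.43 on every array, and 0 were called, with 0 at an unadjusted p under 0.05. The kininogens and fetuins, cystatin-like proteins of blood plasma, had 4 measured genes, again with 0 called and 0 at an unadjusted p under 0.05.

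The enzymes that cystatins block were lower in MN1 cells for part of their list. Of 11 measured cysteine cathepsins and legumain, the asparaginyl protease of lysosomes that cystatin C also inhibits, 4 fell and 1 rose in MN1 minus Gr1Mac, with a median of -0.78. In the same comparison 12% of all genes fell and 17.3% rose. Ctss and Ctsh, cathepsins S and H of antigen-presenting cells, each fell by 3.45 log2 units (limma adjusted p = 0.00401 and 0.00628). Ctsb, the gene of cathepsin B, fell by 1.22 (limma adjusted p = 0.00645), a call lost with a split of the arrays by their control features as a block (0.0964). Lgmn, the legumain gene, was lower in MN1 by at least 1.73-fold (limma adjusted p = 0.0127), and Ctsf, the cathepsin F gene, was higher by at least 1.32-fold (limma adjusted p = 0.0291), each with the dimmer group under the guide to background. The Lgmn call was lost without Gr1Mac array 1 (0.0717), MN1 array 1 (0.0596) or MN1 array 2 (0.0715), and the Ctsf call without Gr1Mac array 2 (0.129), MN1 array 1 (0.126) or MN1 array 2 (0.122). The mean of all Ctsf probe sets differed by 0.31 log2 units (adjusted p 0.283), and with the control feature split as a block the difference was 0.43 (0.591).

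Ctss read 13.62 and 12.11 log2 units on MN1VP16 arrays, 9.79 and 9.75 on MN1 arrays, and 13.36 and 13.08 on Gr1Mac arrays. Ctsb read 12.86 and 12.77 on MN1VP16 arrays, 11.20 and 11.40 on MN1 arrays, and 12.72 and 12.32 on Gr1Mac arrays. In both, as in Cst3, the MN1 arrays were the lowest and the MN1VP16 arrays overlapped Gr1Mac (Ctss) or lay above it (Ctsb).

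In MN1VP16 minus MN1, 2 of the 11 proteases rose and 0 fell, where 1.15% of all genes rose and 2.7% fell, and the median was 1.16. Ctss rose by 3.10 ± 0.46 (SE; limma adjusted p = 0.0316) and Ctsb by 1.52 ± 0.19 (limma adjusted p = 0.0248). The Ctss call was lost without MN1 array 1 (0.0769), MN1 array 2 (0.204) or either Gr1Mac array (0.0638), and the Ctsb call without MN1 array 1 (0.0673), MN1 array 2 (0.153), MN1VP16 array 1 (0.0561) or MN1VP16 array 2 (0.0718). In MN1VP16 minus Gr1Mac limma called 0 of the 11, with 0 at an unadjusted p under 0.05, and the median was 0.30. Of the 4 aspartic and serine cathepsins, which cystatins do not block, Ctsd fell by 0.97 in MN1 minus Gr1Mac (limma adjusted p = 0.00772) and was the only call in the 3 comparisons. It was lost without MN1 array 2 (0.0614) and with the control feature split as a block (0.146).

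**Figure D3:**
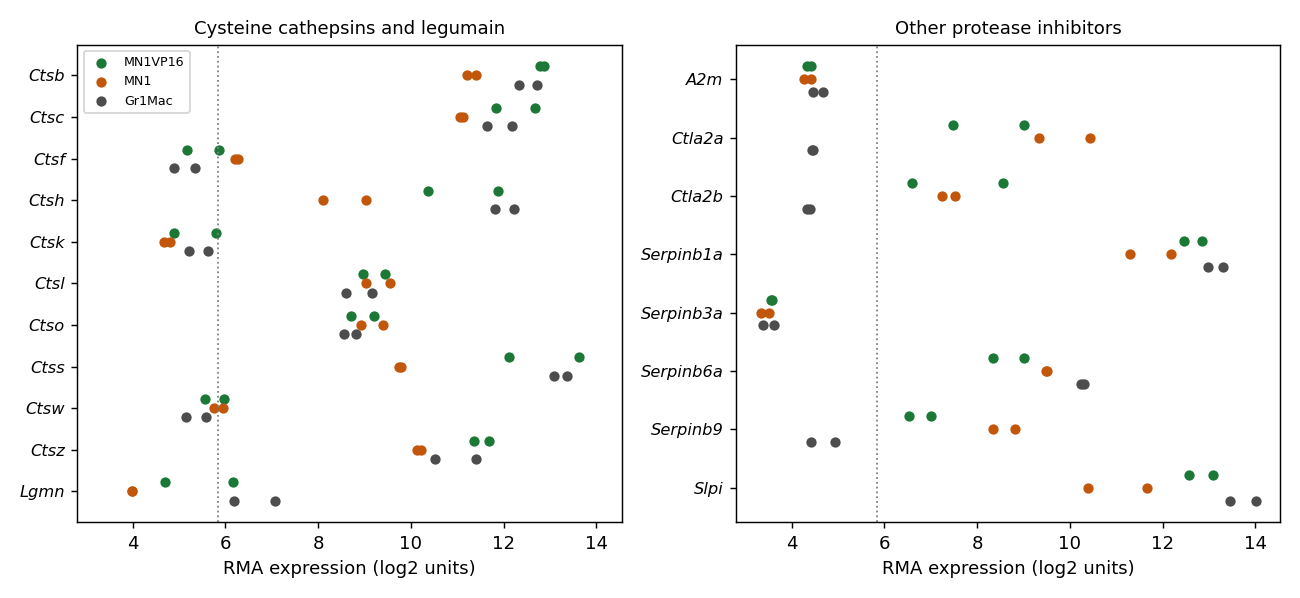
Expression on each array (horizontal axis, log2 RMA units) of the 11 cysteine cathepsins and legumain (left) and the 8 other protease inhibitors (right), with MN1VP16, MN1 and Gr1Mac from top to bottom within a gene. Points are arrays and the dotted line is the guide to background at 5.84. Ctss, Ctsh and Ctsb are lowest on the MN1 arrays, and Ctla2a is lowest on the Gr1Mac arrays.

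Other inhibitors of these or of neutrophil proteases went both ways. Of 8 measured, 3 rose and 2 fell in MN1 minus Gr1Mac, with a median of -0.16, where 17.3% of all genes rose and 12% fell. Ctla2a and Ctla2b, mouse inhibitors related to the cathepsin L propeptide, rose by at least 16.5-fold and at least 2.93-fold, and Serpinb9, an inhibitor of granzyme B, by at least 6.71-fold, all with Gr1Mac means under the guide. Slpi, which blocks neutrophil elastase and cathepsin G, fell by 2.71 ± 0.45 (SE; limma adjusted p = 0.00740), and Serpinb1a, another elastase inhibitor, fell by 1.40 ± 0.33 (limma adjusted p = 0.0234). The Slpi call was lost with the control feature split as a block (-2.18, adjusted p 0.157), as was the Serpinb1a call (0.369). The Serpinb1a call was also lost without Gr1Mac array 1, Gr1Mac array 2 or MN1 array 2 (0.0655 to 0.117), and the Ctla2b call without any 1 MN1 or Gr1Mac array (0.0608 to 0.0727). Ctla2a read 9.01 and 7.47 log2 units on MN1VP16 arrays, 9.34 and 10.43 on MN1 arrays, and 4.47 and 4.45 on Gr1Mac arrays, so like the stefin A genes it was higher on every construct array.

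In MN1VP16 minus Gr1Mac the same 3 inhibitors, Ctla2a (at least 5.29-fold), Ctla2b (at least 3.34-fold) and Serpinb9 (at least 1.92-fold), rose and 1 fell, with a median of -0.07, where 3.66% of all genes rose and 2.11% fell. Serpinb6a, an inhibitor of cathepsin G, fell by 1.60 ± 0.24 (SE; limma adjusted p = 0.0262). The Ctla2a call was lost without Gr1Mac array 1 (0.0715) or 2 (0.107), the Serpinb9 call without Gr1Mac array 2 (0.0673) or MN1VP16 array 1 (0.0564). The Ctla2b and Serpinb6a calls were lost without any 1 Gr1Mac or MN1 array, and Serpinb6a also without MN1VP16 array 2 (0.0585). In MN1VP16 minus MN1, Serpinb9 fell by 1.81 ± 0.28 (limma adjusted p = 0.0334), and 0 of the 8 rose, with 2 higher and 3 lower at an unadjusted p under 0.05. The Serpinb9 call held without MN1VP16 array 1 and was lost without each of the other 5 arrays (0.0534 to 0.211).

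Levels of cell type markers differed between groups along with these genes. The 6 measured monocyte and macrophage markers averaged 8.85 to 9.84 log2 units on MN1VP16 arrays, 7.38 to 7.85 on MN1 arrays, and 9.02 to 9.40 on Gr1Mac arrays. That mean was lowest in MN1, as Cst3 and Ctss were. Mrc1 alone of the 6 was lowest on Gr1Mac arrays (7.15 and 6.86, with 8.47 and 8.08 on MN1 arrays). The part of these markers in the Cst3 and cathepsin values was not tested. The 6 neutrophil markers averaged 12.89 to 13.14 on MN1VP16 arrays, 11.97 to 12.82 on MN1 arrays, and 13.84 to 14.01 on Gr1Mac arrays. The 5 stem and progenitor markers averaged 9.38 to 10.03 on MN1VP16 arrays, 10.77 to 11.04 on MN1 arrays, and 5.50 to 5.78 on Gr1Mac arrays, and the 5 mast cell, basophil and eosinophil markers 9.39 to 9.85, 9.87 to 10.42 and 5.66 to 7.44 in that order of groups. The means of both lists, like Stfa3, Stfa2l1 and Cst7, were lowest on Gr1Mac arrays, and their part in those results was not tested. In the mast cell, basophil and eosinophil list, Prg2 and Epx did not follow that mean. They read 10.44 and 7.47 (Prg2) and 7.61 and 4.84 (Epx) on Gr1Mac arrays, and each was highest on Gr1Mac array 1. In these 4 lists 0 markers were at or under the guide on every array.

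**Figure D4:**
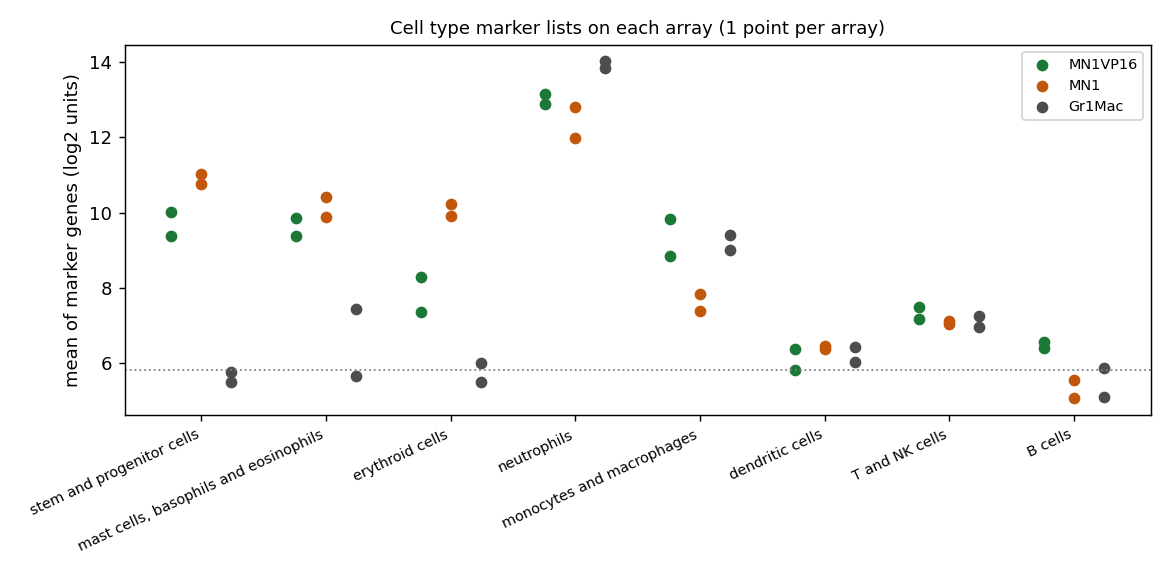
Mean log2 expression of 8 cell type marker lists on each array (log2 RMA units), with MN1VP16, MN1 and Gr1Mac from left to right within a list. Points are arrays and the dotted line is the guide to background at 5.84. Monocyte and macrophage markers are lowest on MN1 arrays, and stem and progenitor markers are lowest on Gr1Mac arrays.

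Of the genes behind the sorting gate, Itgam, which encodes CD11b, was the one measured. It read 9.44 and 8.88 log2 units on MN1VP16 arrays, 7.67 and 6.95 on MN1 arrays, and 10.95 and 10.92 on Gr1Mac arrays, highest where cells were sorted for it. Erythroid markers, 4 measured, averaged 7.35 to 8.30 on MN1VP16 arrays, 9.91 to 10.23 on MN1 arrays, and 5.52 to 6.01 on Gr1Mac arrays, with Hba-a1 under the guide on every array. Megakaryocyte and platelet markers, 4 measured with 1 under the guide throughout, averaged 6.71 to 7.75 on MN1VP16 arrays, 6.97 to 7.14 on MN1 arrays, and 6.07 to 6.12 on Gr1Mac arrays. Dendritic cell, B cell and stromal lists, which hold 2 of 5, 1 of 3 and 2 of 4 markers under the guide on every array, averaged at most 6.57 log2 units on any array. Single markers did not follow these means. In the dendritic cell list, Flt3 read 9.76 and 7.43 on MN1VP16 arrays, 11.45 and 11.18 on MN1 arrays, and 7.23 and 7.32 on Gr1Mac arrays. Itgax of that list was highest on Gr1Mac arrays (7.14 and 8.13). In the B cell list, Cd79b read 6.04 to 8.74 over the arrays.

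Arrays also differed in sex pattern and in the control features. Both MN1 arrays and Gr1Mac array 1 had high Xist, and the other 3 arrays had high Y-linked genes, so the constructs share no sex pattern and their comparison cannot be told apart from it. Among Y-high arrays, MN1VP16 minus Gr1Mac was 5.06 for Stfa3, 2.68 for Stfa2l1, 0.05 for Cstb, 0.19 for Cst3 and 2.86 for Cst7. Among Xist-high arrays, MN1 minus Gr1Mac was 4.33 for Stfa3, 2.47 for Stfa2l1, -0.37 for Cstb, -2.23 for Cst3 and 1.44 for Cst7. Each of these comparisons holds 1 Gr1Mac array, and the stefin A genes were selected on values of the same arrays. The first component of the control features set both MN1 arrays and MN1VP16 array 1 apart from the other 3. Within the second side MN1VP16 minus Gr1Mac was 4.92 for Stfa3, 2.64 for Stfa2l1 and 3.10 for Cst7, and within the first side MN1VP16 minus MN1 was 1.65 for Cst3 and 0.75 for Cstb. MN1 and Gr1Mac share no side. With sex pattern as a block, the sex term was set by the difference between Gr1Mac arrays 1 and 2 alone. MN1VP16 minus MN1 was then 3.38 for Ctss, 1.91 for Ctsb, -2.31 for Serpinb9, 2.31 for Asprv1 and 2.02 for Ifitm1. With sex pattern as a block, none of the calls named above in MN1VP16 minus MN1 was kept: adjusted p was 0.299 for Ctss, 0.215 for Ctsb, 0.257 for Serpinb9, 0.396 for Asprv1 and 0.349 for Ifitm1. In MN1VP16 minus Gr1Mac the calls of Asprv1, Padi4, Ctla2a, Ctla2b and Serpinb6a were lost with that block (0.0602 to 0.115), and in MN1 minus Gr1Mac those of Ctsf, Serpinb1a and Ctla2b (0.0727 to 0.129).

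Genes most like each member were ranked by Pearson correlation over the 6 arrays, a description over points that share 3 groups. Stfa3 was followed most closely by Rpn1 (0.993), an oligosaccharyltransferase subunit, by Krtcap2 (0.991), of the same complex, and by Gpam (0.986), which makes glycerolipids, among 4942 genes with enough signal and range. Stfa2l1 was followed by Tm7sf3 (0.992), Stfa3 (0.984) and Colgalt1 (0.978). For Cst3 they were Lpl (0.993), the lipoprotein lipase gene, Elmo2 (0.991) and Il10ra (0.988), the interleukin 10 receptor. For Cst7 they were Sirt3 (0.994), Yipf2 (0.991) and Mcm5 (0.990), and for Cstb H2-Ab1 (0.924) and H2-DMb2 (0.916), both of MHC class II presentation, and Cpt1a (0.909). Correlations over 0.95 were reached by 53 genes for Stfa3, 16 for Stfa2l1, 107 for Cst3, 53 for Cst7 and 0 for Cstb.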

How the data were processed

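The log2 values per probe set were deposited by the authors. Per the submitters' processing notes they come from RMA, in a version not given in the sources used here, which normalises between arrays and compresses differences of dim genes. Of 45037 probe sets on the Affymetrix mouse array, the platform annotation gave 1 gene to 34945. The 932 with several genes and 9160 with none were left out. The probe set with the highest mean stood for a gene (18193 genes). Group was the only term of a linear model over all 6 arrays, fitted with limma 3.58.1 in R 4.3.3 and tested on simulated data, with Benjamini-Hochberg adjustment over all genes and calls under 0.05. Folds against a dim group use the higher of its reading and 5.84. Named are the 5 members, at most 5 called genes of each list by size, and the 3 genes most correlated with a member. The members and lists were chosen with earlier results of these data known. No label names separate mice, so the spread behind the p-values is that between these arrays and may be technical, and the number of arrays limits the precision. Alternatives covered the fit, scaling, probe set choice, blocks and left-out arrays.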

Additional observations from a re-analysis of the deposited data

Results flagged for a closer look

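A pair of probe sets lay outside the gene table because the annotation gives each of them to 2 stefin genes, so no gene is named for them. Both were brighter on every construct array than on the Gr1Mac arrays. The first read 14.49 and 14.10 log2 units on MN1VP16 arrays, 14.27 and 13.74 on MN1 arrays, and 9.49 and 9.20 on Gr1Mac arrays, a difference of 4.95 for MN1VP16 minus Gr1Mac and 4.66 for MN1 minus Gr1Mac. The second read 7.98 and 12.53 on MN1VP16 arrays, 9.78 and 8.40 on MN1 arrays, and 5.87 and 5.69 on Gr1Mac arrays, a difference of 4.48 for MN1VP16 minus Gr1Mac and 3.31 for MN1 minus Gr1Mac. The Gr1Mac mean of the second lay under the guide to background of 5.84 log2 units. Against that guide its group mean was at least 21.1-fold higher in MN1VP16 and at least 9.42-fold higher in MN1. The MN1VP16 arrays lay far apart (SD 3.22, n = 2), so the 21.1-fold is of their mean and does not hold for array 1. On this probe set the MN1VP16 arrays lay on both sides of the MN1 arrays. These differences were not tested.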

How the results depend on the processing

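Over the 15 alternatives Stfa3 differed from Gr1Mac by 4.76 to 5.06 for MN1VP16 and 4.05 to 4.92 for MN1. For Stfa2l1 the differences were 2.64 to 3.01 and 1.93 to 2.71. Both genes were selected for a rise, so their direction was not put to a test here. Some alternatives, such as the 2 groups alone or the replicate number as a block, cannot change these differences. Between the constructs, Stfa3 ran from -0.0057 (without MN1 array 2) to 0.86 as single arrays were left out. Cst3, MN1VP16 minus MN1, passed with the 2 groups alone (1.48, adjusted p 0.0469) and with the replicate number as a block (0.0477), ran from 1.31 to 1.65 without single arrays, and was 2.42 with sex as a block (0.215). Cst3 has 14 alternatives, since its only probe set is of a kind that another alternative leaves out. With the control feature split as a block, MN1 minus Gr1Mac was 3.96 for Cst7 and -0.79 for Cstb. All-gene counts moved more. MN1 minus Gr1Mac called 914 higher and 572 lower with the control split, and 1519 to 3103 and 899 to 2097 without single arrays. MN1VP16 minus Gr1Mac called 181 higher and 166 lower with 2 groups alone, 272 and 169 with the control split, 1018 and 225 with sex as a block, and 22 to 1018 and 27 to 225 without single arrays. MN1VP16 minus MN1 called 104 higher with 2 groups alone, 129 with array medians subtracted, 73 higher and 130 lower with the control split, 327 lower with the replicate block, and 3 to 252 and 23 to 350 without single arrays. With sex as a block limma called 0 and 0 there (1391 and 1110 at an unadjusted p under 0.05). Lower neutrophil genes in MN1 minus Gr1Mac numbered 3 with the control split and 8 with sex as a block, 8 to 19 without single arrays. In MN1VP16 minus Gr1Mac they numbered 5 with 2 groups alone, 1 with array medians subtracted, the control split or sex as a block, and 0 to 5 without single arrays. Lower cysteine cathepsins numbered 3 to 5 throughout. Of single list genes, 106 of 414 alternative results lost the call and 308 kept it. Same-numbered arrays did not deviate together (correlations -0.05, -0.05 and 0.08), and the replicate block changed no call of Cstb or Cst7. The cause was not tested. Values near 5.84 log2 units are limited by background.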
